A study of Mus musculus with 28 samples.

Results

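This account compares spleen RNA of unchallenged wild-type mice fed a diet supplemented with abscisic acid (ABA) with that of mice fed the control diet (CON). The comparison takes the wild-type samples without lipopolysaccharide (LPS) from both experiments of the study, 8 of its 28 arrays, of which 4 came from the ABA diet and 4 from the control diet. Each diet had 2 arrays in the experiment titled ABAIMMUN05, which held wild-type mice only, and 2 arrays in ABAIMMUN06, which held both genotypes. All of these mice carried floxed Pparg alleles (PPAR g flfl) without the MMTV-Cre transgene (MMTV-Cre-), so "wild-type" here means floxed and not recombined. The other samples of the study were challenged with LPS or came from PPARg-null mice (PPAR g flfl; MMTV-Cre+), in which the mammary tumour virus promoter drives the recombinase. The labels give spleen as the source and speak elsewhere of splenocytes, and they give no age, sex, ABA dose or feeding time. They do not say that arrays came from separate mice, so p-values measure the spread between these samples, which may be partly technical.

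Abscisic acid is a plant stress hormone that is also taken in with food and can be made by mammalian cells. In mammalian immune cells LANCL2 has been described as a protein that ABA acts through, with cAMP as a messenger, and ABA feeding has been linked to the nuclear receptor PPARg, which controls lipid handling and restrains inflammatory genes. The mouse spleen holds white pulp, made of B and T cell areas with dendritic cells, and red pulp, where macrophages clear old red cells and where new red cells can be made.

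Expression was read on a 1-colour mouse array with 45101 probe sets, as the log2 values the authors deposited. The lowest value is 2.29 on every array of ABAIMMUN05 and 2.24 on every array of ABAIMMUN06, so experiment was a term of each fit and no level is compared between experiments. Of 18193 genes with a probe set naming that gene alone, 10860 exceeded their experiment's minimum by more than 0.5 log2 units on at least 4 of the 8 arrays and were tested. Arrays correlated at 0.937 to 0.992 over these genes where they shared an experiment and at 0.667 to 0.736 where they did not. Markers of spleen cells were present, with 12 of 13 B cell, 13 of 16 T cell and 17 of 20 red pulp macrophage genes more than 0.5 above the lowest value on all 8 arrays. Near it on all 8 lay 9 of 10 skeletal muscle, 6 of 9 adipose, 5 of 8 liver and 0 of 14 exocrine pancreas genes.

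No gene passed the test for diet. At a Benjamini-Hochberg adjusted p of 0.05 from limma, 0 of 10860 genes (0%) were called, and the smallest adjusted p was 0.41. Without adjustment, 245 genes (2.26%) had a p below 0.05, where a uniform spread of p-values would place 543. Of these 245, ABA was higher in 72 (0.663%) and lower in 173 (1.59%). Differences were small beside their error. The median difference over all genes was -0.03 log2 units, the median absolute difference 0.16 and the median standard error (SE) 0.24. The 95% interval lay within 1 log2 unit either way for 7329 genes (67.5%), and 79 genes (0.727%) had a difference beyond 1, with ABA higher in 17 and lower in 62. For the remaining genes a change larger than 1 log2 unit was not excluded by the interval.

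**Figure D1:**
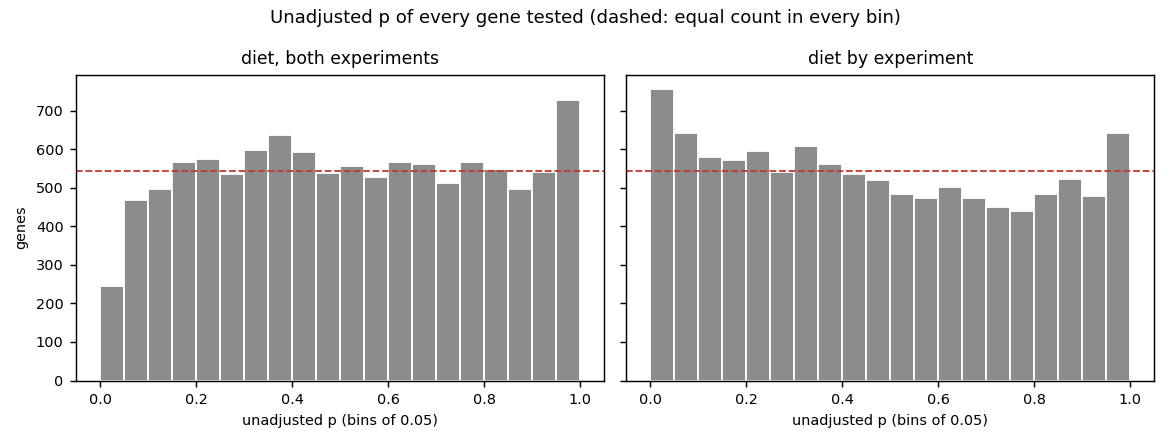
Histograms of the unadjusted p of the 10860 genes tested, in bins of 0.05, with the number of genes on the y axis, for diet over both experiments (left) and for diet by experiment (right). The dashed line is an equal count of 543 in every bin. The first bin holds 245 genes for diet and 756 for diet by experiment.

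The diet differences of the 2 experiments did not follow each other across genes, and no gene passed the test of diet by experiment. Both ABA arrays lay above both control arrays in each experiment for 81 genes (0.746%), and below them in each for 156 (1.44%). Without overlap but in opposite directions were 563 genes (5.18%), 173 (1.59%) with ABA above in ABAIMMUN05 and below in ABAIMMUN06 and 390 (3.59%) the other way round. Within a single experiment 0 genes passed in either, and 382 (3.52%) in ABAIMMUN05 and 834 (7.68%) in ABAIMMUN06 had an unadjusted p below 0.05. The difference was positive in both for 1937 genes (17.8%) and negative in both for 2439 (22.5%). Across genes, which are not independent replicates, the differences of the 2 experiments had a Pearson correlation of -0.10 and a Spearman correlation of -0.12. The experiments share no arrays.

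Among genes with the same sign in both experiments, the 8 of each direction with the smallest p are given as values, since none passed. Because they were chosen on this contrast their separation is no further evidence. Several act in transcription. Thap11, a zinc finger regulator (Ronin) needed in mouse embryonic stem cells, had log2 values of 5.44 and 5.62 on the ABA arrays against 6.47 and 6.42 on the control arrays of ABAIMMUN05. In ABAIMMUN06 Thap11 had 6.45 and 6.78 with ABA against 7.66 and 7.54 with the control diet. Each ABA array was below each control array of its experiment, by a similar amount in both. The difference was -0.95 ± 0.10 (SE; 95% interval -1.20 to -0.70), with an adjusted p of 0.41 in limma. Thap11 passed when the 12 wild-type arrays with LPS were added to estimate the spread, with adjusted p-values of 0.0164 and 0.0237 in 2 such fits.

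Zkscan3, a zinc finger repressor of autophagy genes, had 5.64 and 6.01 with ABA against 6.82 and 6.80 with the control diet in ABAIMMUN05. In ABAIMMUN06 Zkscan3 had 7.36 and 7.41 with ABA against 7.89 and 7.89 with the control diet. The 4 control values sat almost on top of each other within each experiment, and the difference was -0.74 ± 0.14 (SE). This came from the brightest of its 3 probe sets, and the other probe sets gave -0.26 and 0.28, so the probe sets of Zkscan3 disagree. Tead2, a DNA-binding partner of the Hippo pathway, differed by -0.39 ± 0.08. On the higher side, Gtf2a1, a subunit of the general factor TFIIA, had 9.35 and 9.61 with ABA against 8.92 and 8.90 with the control diet in ABAIMMUN05, and 8.71 and 9.02 with ABA against 8.40 and 8.20 with the control diet in ABAIMMUN06. Its difference of 0.57 ± 0.11 was absent from its dimmer probe sets, at 0.04 and -0.07. Zbtb3, a BTB zinc finger protein, and Polr3f, a subunit of RNA polymerase III, differed by 0.72 ± 0.19 and 0.41 ± 0.11.

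A further group handles ubiquitin. Ubxn8, an endoplasmic reticulum membrane protein that binds the p97 (VCP) ATPase, had the smallest p, 7.1e-05 unadjusted and 0.41 adjusted in limma. Its values were 4.33 and 4.31 with ABA against 4.93 and 5.10 with the control diet in ABAIMMUN05, and 6.03 and 5.88 with ABA against 6.69 and 6.74 with the control diet in ABAIMMUN06. Replicates of Ubxn8 lay within 0.2 log2 units of each other while the diets differed by -0.73 ± 0.08. Ubd, the ubiquitin-like modifier FAT10, had 5.95 and 5.42 with ABA against 4.54 and 4.24 with the control diet in ABAIMMUN05. In ABAIMMUN06 Ubd had 4.48 and 5.13 with ABA against 4.30 and 3.72 with the control diet. Its difference of 1.04 ± 0.24 was the largest positive one among the 8. Rnf146, a ubiquitin ligase that recognises poly-ADP-ribosylated proteins, differed by -0.41 ± 0.09, with -0.06 and 0.18 from its dimmer probe sets.

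Among proteins of membranes and secretion, Gga3, a clathrin adaptor of the trans-Golgi network, had 5.47 and 6.08 with ABA against 6.70 and 6.76 with the control diet in ABAIMMUN05. In ABAIMMUN06 Gga3 had 5.79 and 6.50 with ABA against 6.99 and 7.50 with the control diet. Its difference of -1.03 ± 0.22 was the largest negative one among the 8, and its ABA replicates were 0.6 to 0.7 apart. Pigl, a deacetylase of GPI anchor synthesis, differed by -0.38 ± 0.08, and Odr4, known from odorant receptor transport in Caenorhabditis elegans, by -0.43 ± 0.09 (0.09 from its dimmer probe set). Of RNA-binding proteins, Lsm14b had 9.12 and 9.04 with ABA against 8.59 and 8.67 with the control diet in ABAIMMUN05, and 7.28 and 7.43 with ABA against 6.82 and 6.87 with the control diet in ABAIMMUN06. The gap of 0.47 ± 0.07 was several times the distance between replicates. Sugp2, a G-patch protein, differed by 0.46 ± 0.12, and its second probe set above the lowest value gave 0.12. Tstd2 differed by 0.59 ± 0.15, and Ifi35, an interferon-induced protein, by 0.48 ± 0.13, with 0.43 and 0.23 from its dimmer probe sets. All of these apart from Thap11 and Ubxn8 had an adjusted p of 1.00 in limma.

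**Figure D2:**
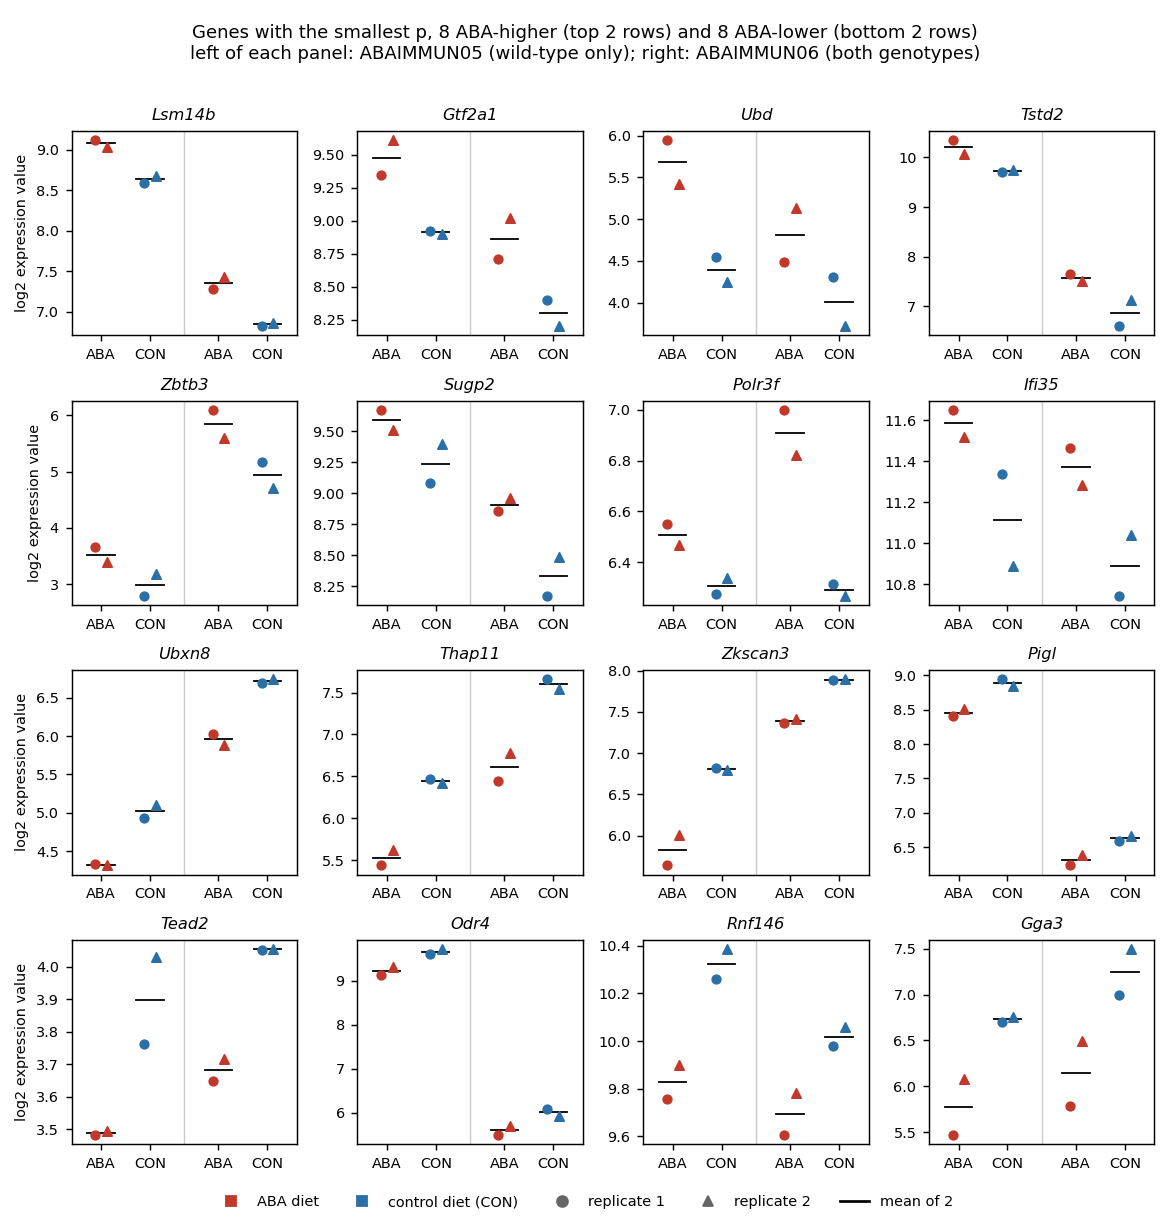
Deposited log2 expression values (y axis) of the 16 genes with the smallest p, 8 with ABA higher and 8 with ABA lower, on each array, with ABA (red) left of control (blue) in ABAIMMUN05 (left of each panel) and ABAIMMUN06 (right). Circles are replicate 1, triangles replicate 2, and the bar is the mean of 2 arrays. In each experiment the ABA arrays lie on one side of the control arrays, as for Thap11 at 5.44 and 5.62 with ABA against 6.47 and 6.42 with the control diet, which the choice of these genes favours.

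The same 16 genes were followed in samples that the comparison had not used. In PPARg-null mice without LPS, 13 of the 16 had the same sign, where 64.7% of all genes tested did. In wild-type mice with LPS 10 of the 16 had the same sign, beside 53% of all genes, and in PPARg-null mice with LPS 6 of the 16 did, beside 36.4%. Thap11 differed by -0.38 ± 0.11 between diets in LPS-challenged wild-type mice, by -0.50 ± 0.47 in PPARg-null mice without LPS and by 0.69 ± 0.09 in PPARg-null mice with LPS. Ubd averaged 10.25 ± 0.76 with ABA and 9.87 ± 0.50 with the control diet (SD, n = 4 each) among LPS-challenged wild-type mice of ABAIMMUN05, where unchallenged mice had 4.24 to 5.95. In ABAIMMUN06 the direction was the other way, with 7.95 and 10.70 on the ABA arrays against 12.70 and 13.29 on the control arrays of LPS-challenged wild-type mice. Ubd was also lower with ABA in PPARg-null mice without LPS, at 4.26 and 4.26 with ABA against 5.98 and 5.08 with the control diet. Zbtb3 had 6.12 and 5.28 with ABA against 2.72 and 2.79 with the control diet in PPARg-null mice without LPS. The null comparisons rest on 2 arrays a diet, and those without LPS were uneven in other ways. The pancreatic gene Cpa1 was 13.50 on ABA replicate 2 and 9.67 on control replicate 2, and 2.24 on both replicates 1. Xist, a transcript of female cells, was 12.59 on ABA replicate 2 and 2.24 elsewhere. Mki67, a gene of cycling cells, was 10.16 on control replicate 1 and 12.80 to 13.52 elsewhere.

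**Figure D3:**
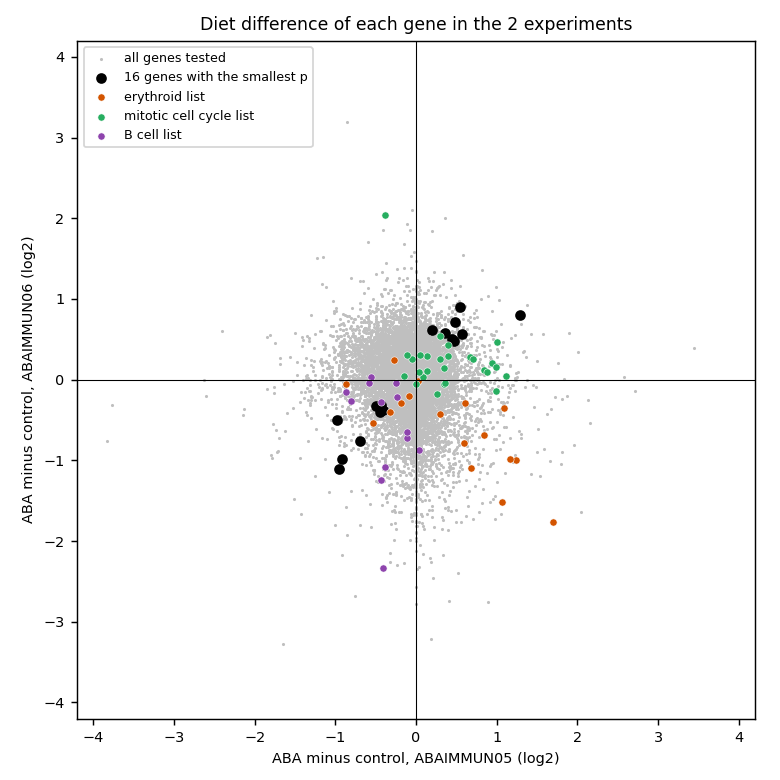
Each point is a gene, with its ABA minus control difference (log2) in ABAIMMUN05 on the x axis and in ABAIMMUN06 on the y axis. Grey marks all genes tested, black the 16 genes with the smallest p, and colours the erythroid, mitotic and B cell lists. Of the genes tested, 2 lie beyond the axes at 4.2 and are not drawn. The cloud has no positive slope (Pearson correlation -0.10), B cell genes lie mostly in the lower left, and erythroid genes mostly in the lower right.

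Genes of ABA sensing and cAMP signalling showed no called difference (0 of 26 tested), and their median difference of -0.01 was close to the -0.03 of all genes, and 0.12 without ABA replicate 1 of both experiments. Lancl2 had 6.44 and 3.86 with ABA against 4.61 and 4.91 with the control diet in ABAIMMUN05. In ABAIMMUN06 Lancl2 had 9.35 and 7.27 with ABA against 7.21 and 7.92 with the control diet. The ABA replicates were over 2 log2 units apart in both experiments, the diets overlapped, and the difference was 0.57 ± 0.69 (SE), or -0.60 without ABA replicate 1 of both experiments. An exact two-sided permutation test over 36 arrangements of diet within experiments gave p = 0.444 for Lancl2, where the smallest possible is 0.0556. Gnas, which encodes the stimulatory G protein subunit that activates adenylyl cyclase, had the smallest p of the list, with 10.68 and 11.01 with ABA against 11.51 and 11.15 with the control diet in ABAIMMUN05. Its values were 11.66 and 12.17 with ABA against 12.51 and 12.29 with the control diet in ABAIMMUN06, all below the control arrays, a difference of -0.48 ± 0.16 with an adjusted p of 1.00 in limma. It was the 1 gene of the 26 without overlap in the same direction in both experiments. Of all genes tested, 0.746% lay above and 1.44% below in this way. Gnai2, an inhibitory G protein subunit named here for its values, had no overlap in either experiment but opposite directions, with 9.88 and 9.13 with ABA against 9.05 and 8.95 with the control diet in ABAIMMUN05, and 11.43 and 11.94 with ABA against 12.74 and 12.30 with the control diet in ABAIMMUN06. Prkaca, a catalytic subunit of the cAMP-dependent kinase picked after its values were seen, differed by 0.50 ± 0.23.

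Pparg itself, the receptor whose gene is floxed in these mice, was too dim to test. It had 3.70 and 2.35 with ABA against 2.87 and 2.29 with the control diet in ABAIMMUN05, and 2.45 and 3.56 with ABA against 2.51 and 2.69 with the control diet in ABAIMMUN06. Most of these values are at or near the lowest value, and the difference of 0.42 had an exact two-sided permutation p of 0.444. Of 22 genes of PPAR and lipid handling 0 were called and their median difference was -0.08. Pdk4, a kinase that turns cells from glucose towards fatty acid oxidation, had the smallest p of that list. It had 4.34 and 3.21 with ABA against 4.52 and 6.42 with the control diet in ABAIMMUN05, and 7.78 and 8.34 with ABA against 8.72 and 8.84 with the control diet in ABAIMMUN06. Its ABA arrays were below its control arrays in each experiment, but the control replicates of the first differed by nearly 2 log2 units, and the difference was -1.21 ± 0.50. The fatty acid transporter Cd36 and the lipid-binding protein Fabp4, both PPARg targets, differed by 0.06 ± 0.34 and 0.73 ± 1.09.

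Inflammatory genes were mostly low. Tnf and Il6, cytokines of the response to LPS, lay within 0.5 of the lowest value on all 8 arrays, at up to 2.74 and 2.29, and were not tested. Il1b had 4.79 and 4.34 with ABA against 6.30 and 4.75 with the control diet in ABAIMMUN05, and 5.44 and 9.50 with ABA against 6.47 and 7.65 with the control diet in ABAIMMUN06. The spread of the ABA pair in the second experiment exceeded any difference between diets, which was -0.27 ± 0.96. None of the 14 tested cytokine and chemokine genes was called, nor any of the 21 TLR4 and NF-kB genes, the 21 type I interferon-stimulated genes or the 15 induced by interferon gamma. Their median differences were -0.09, -0.08, -0.15 and -0.18, and 0.15, 0.16, -0.19 and 0.21 without ABA replicate 1 of both experiments, so that 3 of the 4 signs turned. Tap1, the peptide transporter of MHC class I loading, had the smallest p among interferon gamma genes, at -0.85 ± 0.34.

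B cell, T cell, dendritic cell, MHC class II, and endothelial and stromal genes were more often on the negative side. Natural killer and plasma cell genes were not. Of 15 endothelial and stromal genes, 8 had a negative difference in both experiments and 0 a positive one in both. Their median was -0.40, and -0.17 without ABA replicate 1 of both experiments. Of 13 B cell genes tested, 11 had a negative difference in both experiments and 0 a positive one in both, beside 22.5% and 17.8% of all genes. The median of the list was -0.42, and 0 members were called. Blk, a B cell receptor kinase, had 8.98 and 9.53 with ABA against 9.65 and 9.63 with the control diet in ABAIMMUN05. In ABAIMMUN06 Blk had 8.27 and 9.43 with ABA against 10.01 and 9.86 with the control diet. All ABA arrays were below the control arrays, but replicate 1 of ABA was far lower than replicate 2, and the difference was -0.73 ± 0.30. Without ABA replicate 1 of both experiments the list median was 0.24. In bulk RNA, fewer cells of a type and less RNA per cell cannot be told apart.

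T cell genes followed the same arrays. Thy1, a T cell surface protein, had 7.75 and 9.08 with ABA against 9.83 and 8.74 with the control diet in ABAIMMUN05. In ABAIMMUN06 Thy1 had 6.32 and 8.22 with ABA against 8.91 and 8.78 with the control diet. Replicate 1 of ABA was the lowest array of each experiment, and the difference was -1.22 ± 0.54. Of 16 T cell genes 9 were negative in both experiments, with a list median of -0.30 that was 0.05 without those 2 arrays. The median was -0.33 for 12 genes of MHC class II and co-stimulation, of which 8 were negative in both experiments, and 0.12 without those arrays. H2-Ab1, an MHC class II chain, had the smallest p of that list at -0.82 ± 0.37. Dendritic cell genes had a median of -0.37 with 6 of 9 negative in both, and -0.02 without those arrays. Siglech, a receptor of plasmacytoid dendritic cells, differed by -0.44 ± 0.17. Of 10 natural killer and cytotoxic genes 3 were positive in both experiments and 3 negative in both, with a median of -0.02. Of 8 plasma cell genes 1 was positive in both and 1 negative in both, and their median was 0.27, or 0.00080 without ABA replicate 2 of ABAIMMUN06.

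Glucocorticoid-responsive genes had a negative median whose size depended on single arrays. All 12 had a difference below 0, as had 56.8% of all genes tested, and 7 were below 0 in both experiments. The median was -0.37, or -0.24 without ABA replicate 1 of both experiments and -0.19 without control replicate 2 of ABAIMMUN06. Fkbp5, a co-chaperone induced by the glucocorticoid receptor, had 6.13 and 6.80 with ABA against 6.52 and 7.22 with the control diet in ABAIMMUN05. In ABAIMMUN06 Fkbp5 had 10.41 and 10.03 with ABA against 11.13 and 11.66 with the control diet. The diets overlapped in the first experiment and not in the second, and the difference was -0.79 ± 0.29. Tsc22d3 (GILZ), a glucocorticoid-induced anti-inflammatory factor picked after its values were seen, had 8.16 and 9.17 with ABA against 9.13 and 9.76 with the control diet in ABAIMMUN05. It had 10.69 and 11.15 with ABA against 11.51 and 11.68 with the control diet in ABAIMMUN06, a difference of -0.73 ± 0.27. Both had an unadjusted p near 0.033 and an adjusted p of 1.00 in limma, and no member of the list was called. The list median was 0.17 in wild-type mice with LPS, 0.03 in PPARg-null mice without LPS and 0.44 in PPARg-null mice with LPS.

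In red cell precursor and proliferation genes the spread lay between the ABA replicates rather than between the diets. Slc4a1, the band 3 anion exchanger of red cells, had 13.86 and 9.06 with ABA against 12.85 and 11.14 with the control diet in ABAIMMUN05. In ABAIMMUN06 Slc4a1 had 14.87 and 12.80 with ABA against 14.40 and 14.34 with the control diet. In both experiments the 2 ABA arrays were the highest and the lowest of the 4, with the control arrays between them, and the mean difference was -0.53 ± 1.11. The mean over 17 erythroid genes showed the same order, with 10.33 and 5.57 with ABA against 8.39 and 6.69 with the control diet in ABAIMMUN05, and 12.38 and 9.54 with ABA against 11.58 and 11.54 with the control diet in ABAIMMUN06. The control arrays lay between the ABA arrays in both experiments for 13 of the 17 genes, all with replicate 1 the higher, beside 6.25% of all genes tested, while 1.1% of all genes had the ABA arrays between the control arrays. The median of the list was -0.06, positive at 0.59 in ABAIMMUN05 and negative at -0.42 in ABAIMMUN06, and -2.04 without ABA replicate 1 of both experiments. In ABAIMMUN06 ABA replicate 1 was also the only array with high Xist, a transcript of female cells. All arrays of ABAIMMUN05 had high Xist. The part of this mismatch in the spread was not tested.

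Genes of the mitotic cell cycle were ordered alike. Mki67, a marker of cycling cells picked after its values were seen, had 14.57 and 12.54 with ABA against 13.75 and 13.19 with the control diet in ABAIMMUN05. In ABAIMMUN06 Mki67 had 14.12 and 11.65 with ABA against 12.69 and 13.02 with the control diet. Again replicate 1 of ABA was the highest and replicate 2 the lowest array. For 20 of 27 mitotic genes the control arrays lay between the ABA arrays in both experiments, all with replicate 1 the higher. Mcm5, a subunit of the replicative helicase, had the smallest p of the list, with a difference of 0.47 ± 0.55. The list median was 0.28 with 18 of 27 positive in both experiments, and -0.86 without ABA replicate 1 of both experiments, so its sign rests on those arrays. B and T cell genes ran the opposite way on the same arrays, where 4 of 13 and 3 of 16 had the controls between the ABA arrays in both experiments, each with replicate 1 the lower. The part of this spread in the differences of other genes was not tested beyond the fits with list means as covariates, in which 0 genes passed.

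**Figure D4:**
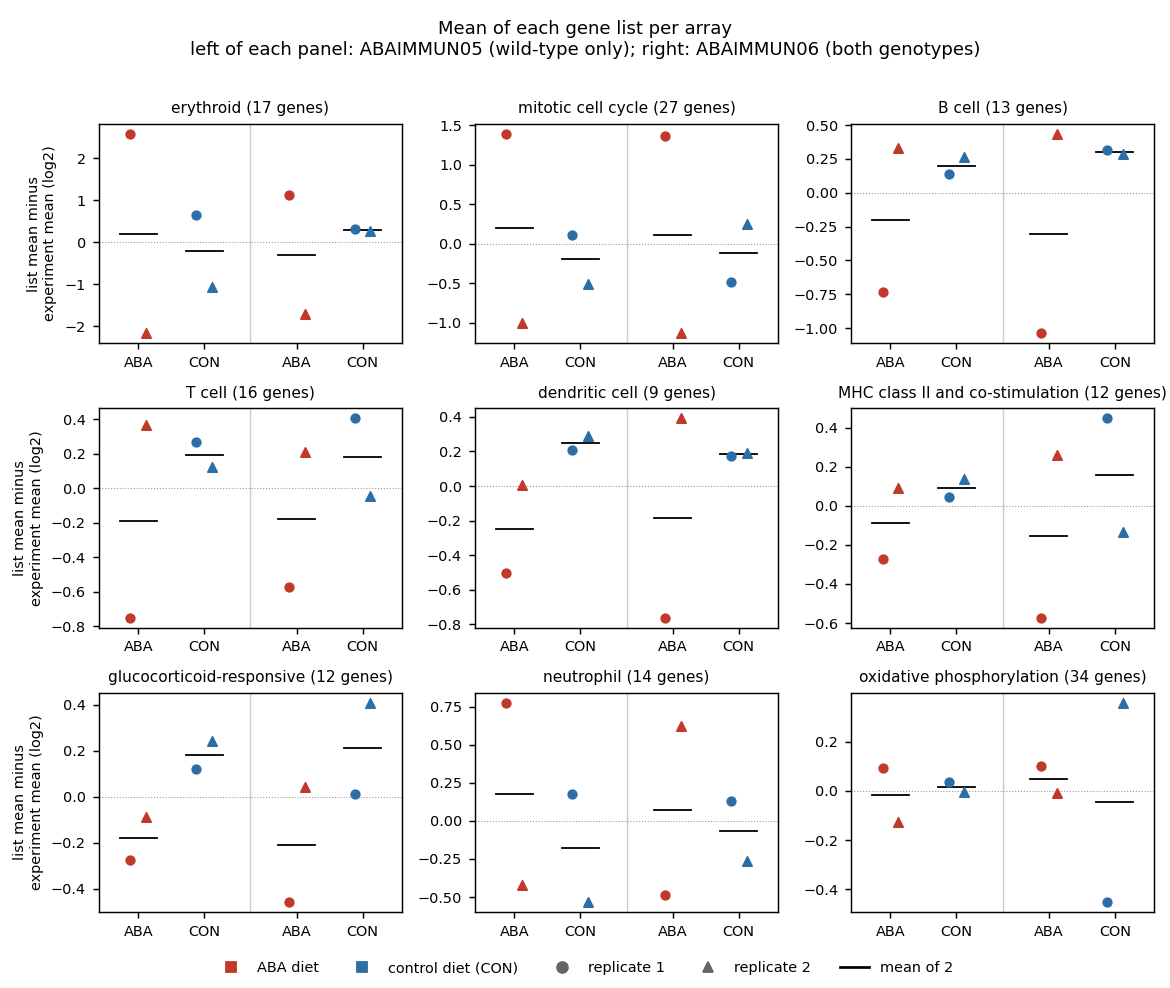
Mean log2 value of 9 gene lists on each array, as the difference from the mean of the 4 arrays of its experiment (y axis), with ABA (red) left of control (blue) and ABAIMMUN05 left of ABAIMMUN06 in each panel. Circles are replicate 1, triangles replicate 2, and bars the mean of 2 arrays. For the erythroid and mitotic lists the ABA arrays are the highest and lowest of each experiment, and in the B and T cell lists ABA replicate 1 is the lowest.

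Over all genes the ABA arrays were also the farthest apart. The root mean square difference between the 2 ABA arrays was 0.842 log2 units, against 0.452 between the 2 control arrays, in ABAIMMUN05, and 0.971 between the ABA arrays against 0.673 between the control arrays in ABAIMMUN06. In each experiment the ABA pair was the most distant of the 6 pairs of arrays, farther apart than any ABA array from any control array. More than 1 log2 unit separated the ABA replicates for 1346 genes, against 413 for the control replicates, in ABAIMMUN05, and the ABA replicates for 2654 genes against 1334 for the control replicates in ABAIMMUN06. This was not particular to the ABA diet over the whole study, since the widest group of all was the control diet in PPARg-null mice without LPS, at 1.12. Slc4a1 had 10.53 and 14.67 on those 2 arrays. In ABAIMMUN06 the 2 ABA arrays also differed in Xist, high on replicate 1 and low on replicate 2, which the 2 control arrays did not. With 2 pairs of arrays, whether ABA or this mismatch widens the spread was not tested.

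**Figure D5:**
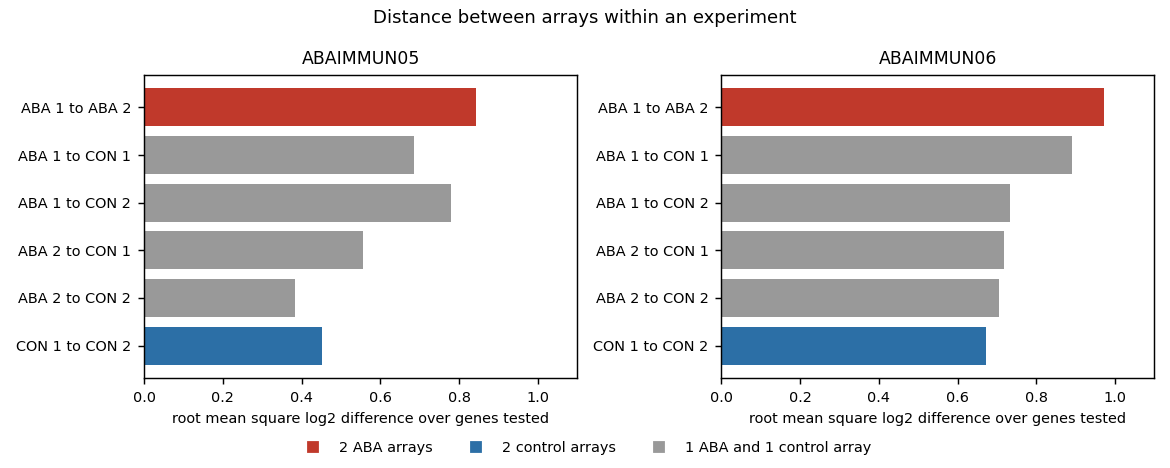
Root mean square log2 difference over the 10860 genes tested (x axis) between each pair of arrays of ABAIMMUN05 (left) and ABAIMMUN06 (right). Red bars are the 2 ABA arrays, grey bars an ABA and a control array, and blue bars the 2 control arrays. The ABA pair has the longest bar in each, at 0.842 and 0.971.

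Transcripts of other tissues and of sex also differed between arrays. Xist, the transcript that silences the X chromosome in females, had 12.17 and 12.57 with ABA against 12.61 and 12.24 with the control diet in ABAIMMUN05. In ABAIMMUN06 Xist had 12.56 and 2.24 with ABA against 2.25 and 2.24 with the control diet. The Y-linked Eif2s3y was the mirror image, at 2.24 and 9.17 with ABA against 8.41 and 9.14 with the control diet in that experiment, so its ABA pair held 1 array of each pattern and its control pair none with high Xist. A term for high Xist left 0 genes passing for diet. Beside the experiment term it set apart only ABA replicate 1 of ABAIMMUN06, the same fit as leaving that array out. It cannot separate the Xist pattern from other traits of that array. Cpa1, a pancreatic carboxypeptidase picked after its values were seen, was 9.11 on control replicate 1 of ABAIMMUN05 and at the lowest value on the other 7 arrays. Prss2, a trypsinogen, was 9.95 on that array and 2.29 on the other 3 of its experiment. Adipoq, a fat cell hormone, had 5.32 and 2.32 with ABA against 4.03 and 2.32 with the control diet in ABAIMMUN05, and 6.64 and 2.36 with ABA against 2.36 and 2.36 with the control diet in ABAIMMUN06. The part of these transcripts in other differences was not tested beyond the pancreas term and the Xist term, which stands for 1 array.

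Whether the diet difference itself differed between the experiments was tested by their interaction. No gene passed (0%), with a smallest adjusted p of 0.304 in limma, while 756 genes (6.96%) had an unadjusted p under 0.05. The median SE of the interaction was 0.46. The 5 genes with the smallest p had lower values with ABA in ABAIMMUN06. They were chosen on this test, so their separation is no further evidence. Cenpb, a centromere protein, had 5.21 and 5.23 with ABA against 7.07 and 6.99 with the control diet there, and was flat near the minimum in ABAIMMUN05. Chmp1a, an ESCRT-III protein, had 7.70 and 7.88 with ABA against 9.48 and 9.43 with the control diet there, and 7.45 and 7.43 with ABA against 7.45 and 7.31 with the control diet in ABAIMMUN05. Nrm, a nuclear envelope protein, had 6.12 and 6.09 with ABA against 8.47 and 8.33 with the control diet there. Tfip11, a factor of spliceosome disassembly, had 5.57 and 5.65 with ABA against 6.84 and 6.75 with the control diet there. Nrm had 3.78 and 3.99 with ABA against 4.29 and 3.94 with the control diet in ABAIMMUN05, and Tfip11 was 2.74 on all 4 arrays of that experiment. These 4 genes had close replicates and a gap between the diets in ABAIMMUN06, and differences of at most 0.23 log2 units in ABAIMMUN05. In ABAIMMUN05 Cenpb and Tfip11 lay within 0.5 log2 units of the lowest value on every array. Both passed the filter only through ABAIMMUN06, and their flat values in ABAIMMUN05 cannot show whether the diets differed there. Cdk10, a cyclin-dependent kinase, had 8.20 and 8.26 with ABA against 7.46 and 7.42 with the control diet in ABAIMMUN05 and 5.94 and 5.95 with ABA against 6.47 and 6.41 with the control diet in ABAIMMUN06.

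The diet difference without LPS was set against that with LPS in all 20 wild-type arrays. No gene passed this test of diet by LPS (0%), with a smallest adjusted p of 0.46 in limma, and 592 genes (5.45%) had an unadjusted p under 0.05. Between the diets with LPS, 2 genes (0.0184%) passed, both lower with ABA and named after their values were seen. Kpna3, a nuclear import factor, differed by -0.66 ± 0.07 with LPS and 0.38 ± 0.32 without, and Ndufaf1, an assembly factor of respiratory complex I, by -0.46 ± 0.03 with LPS and 0.35 ± 0.40 without. For Thap11 the difference without LPS minus that with LPS was -0.57 ± 0.17, with an adjusted p of 0.896. The median over B cell genes was -0.42 without LPS and 0.21 with LPS, that over mitotic genes was 0.28 and -0.35, and that over neutrophil genes 0.32 and 0.68, none with a called member in the test of diet by LPS.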

How the data were processed

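Mouse spleen RNA was hybridised to 1-colour arrays, and the authors deposited 1 value per probe set and array. Per the submitters' processing notes GCRMA and limma were used, with no versions given. No source states the scale of the deposited table, which was read as log2 from its range and from the minimum that all arrays of an experiment share. The background could not be recomputed here. Diet, genotype and challenge came from the labels and experiment from the titles. All pairs of arrays differed (0 identical).

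GEO's platform annotation gave a single gene for 34945 probe sets, several genes for 932 and none for 9160, and 64 were controls. Of the 34945, 34741 matched the RefSeq gene table (GRCm38.p6) by Entrez identifier. Where a gene had several probe sets the brightest over all arrays was used. limma 3.58.1 in R 4.3.3 (lmFit, eBayes) fitted experiment and diet over 8 arrays, leaving 5 residual degrees of freedom, with Benjamini-Hochberg adjustment at 0.05. The ± after a difference is the SE and after a level the SD. The interaction with experiment had 4 residual degrees of freedom, and that with LPS used 20 arrays. Pparg and Lancl2 also had an exact permutation test. The fits were tested on simulated data. Figures used matplotlib 3.10.9 in Python 3.11.15.

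The members and the 33 gene lists (611 entries, 549 with a probe set) were chosen with earlier results of these data known, so lists are given by counts and medians with no test of a list. Named genes are the 8 of each sign with the smallest p among genes with the same sign in both experiments, since none passed. Immunoglobulin, T cell receptor and clone names were left out of these. Added were the member of each list with the smallest p and the 5 smallest p of diet by experiment. Pparg, Lancl2, Xist, Tnf, Il1b and Il6 were always named. Prkaca, Gnai2, Cd36, Fabp4, Tsc22d3, Mki67, Eif2s3y, Cpa1 and Adipoq were picked after their values were seen. Alternatives changed the normalisation, the filter, the probe set rule, the variance model, the arrays and the covariates. The precision is limited by the number of arrays.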

Additional observations from a re-analysis of the deposited data

Results flagged for a closer look

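Genes to flag were looked for only among the 5 genes with the smallest p of diet by experiment. For 2 of them all ABA arrays lay on one side of the controls in 1 experiment and on the other side in the second. The diet difference of Cdk10 in ABAIMMUN06 minus that in ABAIMMUN05 was -1.28 ± 0.13, made of -0.49 in ABAIMMUN06 and 0.79 in ABAIMMUN05, with an adjusted p of 0.423 in limma. For Cenpb it was -1.82 ± 0.13, made of -1.81 and 0.01, with an adjusted p of 0.304 in limma. The positive side of Cenpb is 0.01 log2 units on arrays near the lowest value. Neither gene passed the test of the difference in the main fit. With no filter on low values both passed, with adjusted p-values in limma of 0.00835 for Cdk10 and 0.00295 for Cenpb. Opposite directions without overlap occurred in 563 of the genes tested (5.18%).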

How the results depend on the processing

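The count of 0 genes for diet was the same under 27 of 29 alternatives, and 1 gene, Thap11, passed in the 2 fits over 20 wild-type arrays. Among the 29, the term for high Xist and leaving out ABA replicate 1 of ABAIMMUN06 are the same fit. Leaving out any single array gave 0. The number of genes with an unadjusted p under 0.05, 245 in the main fit, depended on the fit. It was 6 without an experiment term, 146 with the pancreas covariate and 417 with the erythroid covariate. With array weights it was 610, and with 20 arrays 633 and 725. Whether the replicate numbers pair the samples is not known. Deviations of same-numbered arrays correlated at 0.383 in ABAIMMUN05 and -0.222 in ABAIMMUN06. With 2 arrays a diet in each experiment, these values cannot settle it. With the replicate block 0 genes passed for diet, 0 for diet by experiment and 0 for diet by LPS, with 216, 714 and 493 at an unadjusted p under 0.05. For diet by experiment 25 genes passed with no filter on low values (11 higher and 14 lower), and leaving out 1 array gave 0 to 2: Cela3b without control replicate 2 of ABAIMMUN05, and Cd99 and Xist without ABA replicate 2 of ABAIMMUN06. The 25 genes included Cenpb, Chmp1a, Cdk10 and Tfip11. The fits that gave Cela3b, Cd99 and Xist each left 1 array of a diet in an experiment. Cela3b was 7.69 on the control array left and 2.44 on both ABA arrays of ABAIMMUN05. The ABA array left in ABAIMMUN06 was the only array of that fit in that experiment with high Xist. The causes were not tested. Diet by LPS stayed at 0 in its 5 alternatives.

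The 16 genes with the smallest p kept their sign in all 448 values. They were chosen on these same arrays and for the same sign in both experiments, which favours this outcome, so it is no further evidence. Over 42 named genes the sign turned in 17 of 1173 values, in 7 genes. Without ABA replicate 1 of both experiments, an alternative chosen after seeing the data, Mcm5 was -0.35, Klrd1 0.087, Mylpf -0.21, Lancl2 -0.60 and Il1b 0.63. With array weights Lancl2 was -0.17. Leaving out 1 array at a time gave -1.49 to 0.43 for Slc4a1 (0.43 without ABA replicate 2 of ABAIMMUN05), -0.087 to 0.54 for Mylpf, -0.035 to 4.09 for Xist and -1.22 to 0.40 for Il1b. With a term for high Xist and without ABA replicate 1 of ABAIMMUN06, the same fit under 2 names, Mylpf was -0.087, Xist -0.035 and Il1b 0.40. Xist was -0.058 in ABAIMMUN05 alone. Il1b was 0.13 with the pancreas covariate, 0.41 in ABAIMMUN06 alone and 0.18 without control replicate 1 of ABAIMMUN05.

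Per array 27.9% to 36% of genes lay at the lowest value, where differences cannot be measured. The median 95% interval reached 0.59 log2 units either way.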

Other observations

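Lists of metabolism and protein handling stayed near the median of all genes. The median difference was 0.06 over 34 oxidative phosphorylation genes, 0.06 over 16 antioxidant genes, -0.01 over 18 genes of cholesterol and fatty acid synthesis, -0.08 over 23 ribosomal protein genes and -0.05 over 20 genes of the unfolded protein response, with 0 members called in each. Without ABA replicate 1 of both experiments these medians were -0.05, -0.05, 0.04, 0.09 and 0.17, each with the sign turned. In ABAIMMUN06 the 2 control arrays lay on either side of the ABA arrays for 18 of the 34 oxidative phosphorylation genes, beside 10.2% of all genes.

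Heat shock genes had a median of 0.16, made of 0 in ABAIMMUN05 and 0.44 in ABAIMMUN06, and 0 members were called. Of the 17 tested, 7 were positive in both experiments and 1 negative in both, beside 17.8% and 22.5% of all genes. Hspa8, a constitutive HSP70 chaperone, had 14.42 and 14.52 with ABA against 14.28 and 14.33 with the control diet in ABAIMMUN05, and 13.54 and 13.58 with ABA against 12.64 and 13.22 with the control diet in ABAIMMUN06. Its arrays did not overlap between diets in either experiment, and the difference was 0.40 ± 0.16 with an adjusted p of 1.00 in limma. Neutrophil genes had a median of 0.32 with 7 of 14 positive in both experiments and 0 negative in both, and the median was 0.03 without ABA replicate 2 of ABAIMMUN06 and 0.13 without ABA replicate 1 of both experiments. Immediate-early genes had a median of -0.18, which was 0.04 without ABA replicate 1 of both experiments and 0.03 without that of ABAIMMUN06 alone, and Jun, a subunit of AP-1, differed by -0.64 ± 0.29.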
